A study of Mus musculus with 46 samples.

Results

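Microglial transcripts were counted in libraries made from single hippocampal interneurons, and 27 of 46 libraries carried 100 CPM or more of the complement genes C1qa, C1qb and C1qc summed. CPM is a gene's reads scaled to a library total of 1000000. The libraries were chosen by this measured C1q sum, and these are called C1q-high libraries. Another 13 libraries held less than 10 CPM and are called C1q-low, and 6 lay between. The 27 C1q-high libraries comprised 14 of the Sst line and 13 of the Htr3a line, and the 13 C1q-low libraries comprised 5 of the Sst line and 8 of the Htr3a line. The sides were set by measured values, so every difference between them is a description and no p-value is given.

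All cells were labelled as oriens-lacunosum moleculare (OLM) cells that had passed quality control. They came from mice aged postnatal day 21 to 30 that carried either the Htr3a Cre or the Sst Cre driver, with 23 cells of each line. Cre in these lines marks cells that express a serotonin receptor subunit gene or the somatostatin gene. The cytosol of each cell was drawn into a patch pipette and a library is 1 cell. No label names an animal.

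Microglia are the resident macrophages of the brain parenchyma. C1q is the first recognition component of the classical complement cascade, and its A, B and C chains are encoded by neighbouring genes. In the brain microglia are its main source. Other transcripts typical of these cells encode purine and fractalkine receptors, the receptor Trem2 with its signalling adaptor Tyrobp, Fc receptor parts and lysosomal proteases. Spi1 encodes PU.1, a transcription factor of myeloid cells that binds GA-rich sequences with a GGAA core.

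The promoters of C1qb, C1qc, Ctss and Trem2 are shown as examples picked from the windows that hold GAGGAA, which contains the GGAA core. Spi1 was itself read in 16 of 27 C1q-high and 1 of 13 C1q-low libraries, and whether PU.1 acts on these genes was not tested. Each window runs from 250 bases before to 50 bases after the annotated start, on the gene's strand, 5′ to 3′, from RefSeq GRCm38.p6. Capitals mark GAGGAA on either strand, TTCCTC being its reverse complement. C1qb lies at chr4:136886151-136886450 on the minus strand and C1qc at chr4:136892865-136893164 on the minus strand. Ctss lies at chr3:95526536-95526835 and Trem2 at chr17:48346151-48346450, both on the plus strand.
C1qb: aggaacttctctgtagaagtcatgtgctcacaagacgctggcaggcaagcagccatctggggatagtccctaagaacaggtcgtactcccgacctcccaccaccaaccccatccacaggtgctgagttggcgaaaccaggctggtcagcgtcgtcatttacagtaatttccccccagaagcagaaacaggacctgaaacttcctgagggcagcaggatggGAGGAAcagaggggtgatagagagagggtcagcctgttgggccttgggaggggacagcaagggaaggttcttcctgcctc
C1qc: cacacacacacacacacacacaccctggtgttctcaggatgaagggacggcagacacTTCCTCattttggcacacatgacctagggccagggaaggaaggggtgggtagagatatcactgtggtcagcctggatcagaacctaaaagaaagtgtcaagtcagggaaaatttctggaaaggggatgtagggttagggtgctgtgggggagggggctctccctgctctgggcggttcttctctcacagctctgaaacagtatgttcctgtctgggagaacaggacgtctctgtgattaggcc
Ctss: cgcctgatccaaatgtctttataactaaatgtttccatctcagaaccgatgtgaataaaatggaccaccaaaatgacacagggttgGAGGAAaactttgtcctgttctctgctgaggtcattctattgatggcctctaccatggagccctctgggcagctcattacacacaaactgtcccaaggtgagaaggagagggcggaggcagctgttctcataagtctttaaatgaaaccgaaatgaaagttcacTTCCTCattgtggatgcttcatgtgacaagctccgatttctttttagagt
Trem2: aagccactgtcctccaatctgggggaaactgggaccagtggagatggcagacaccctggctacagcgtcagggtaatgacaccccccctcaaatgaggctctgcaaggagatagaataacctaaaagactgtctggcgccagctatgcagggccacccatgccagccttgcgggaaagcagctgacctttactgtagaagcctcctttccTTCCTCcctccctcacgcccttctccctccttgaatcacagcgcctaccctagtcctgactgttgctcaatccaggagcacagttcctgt
The first base of the match stood at position -30 in C1qb, -193 in C1qc and -40 in Trem2, and at -164 and 1 in Ctss, counted from the start. Of the C1q genes and the 20 genes most alike to them, 23 in all, 18 had a window, and 10 of these held GAGGAA on either strand. That is 55.6%, against 31.25% of all 27025 genes with a window. Genes without it included Cx3cr1, Fcer1g, P2ry12, Rgs10, Rnase4, Sparc and Ucp2. The longer GAGGAAGT, which contains GAGGAA, was found in 3 of the 18, C1qc, Ctss and Sepp1, or 16.7%, against 3.69% of all genes. Among the 26 microglial list genes described below as called higher, 18 had a window, of which 10 held GAGGAA (55.6%) and 1 held GAGGAAGT (5.56%). A match is a string of letters and not a measured binding site.

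Across the 46 libraries, assigned reads ranged from 3391829 to 31386369 and genes with a read from 3225 to 12693. C1q-high libraries had a median of 15669499 reads and C1q-low libraries 16251901. A median of 7629 genes was read in C1q-high libraries and 6754 in C1q-low libraries. After thinning to 5000000 reads these medians were 7387 genes in 27 C1q-high libraries and 6631.5 in 12 C1q-low libraries. In 2 libraries, Htr3a line replicates 4 and 20, Gad1, which encodes a GABA-synthesising enzyme, was below 10 CPM, and both were C1q-low. No label names a batch.

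The C1q sum ranged from 127 to 5289 CPM in C1q-high libraries, with a median of 669 CPM, and from 0 to 0.295 CPM in C1q-low libraries. No C1q read was found in 10 of the 13 C1q-low libraries, and the highest of the others had 3 reads. Just inside the upper bound lay Sst line replicate 1 with 127 CPM, and just outside it Sst line replicate 11 with 97.9 CPM. The lowest library between the bounds was Sst line replicate 23, above 10 CPM. Among C1q-high libraries the median was 762 CPM in the 14 of the Sst line (range 127 to 3930) and 614 CPM in the 13 of the Htr3a line (142 to 5289), so the ranges overlapped over most of their length.

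All 3 chains had a read in 25 of the 27 C1q-high libraries, a side chosen by their sum. They did in 2 of the 6 libraries between the bounds, and the other 4 had reads of 1 chain. The genes lie side by side on the minus strand of chromosome 4 (GRCm38), C1qb at 136880129 to 136886187, C1qc at 136889804 to 136893065 and C1qa at 136895917 to 136898803. Per kilobase of exon, C1qb had a median of 334 CPM, C1qa 131 CPM and C1qc 80.9 CPM in C1q-high libraries, and C1qb was the highest of the 3 in 21 of 27.

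The other microglial genes followed the same libraries. A list of 40 further microglial genes had 39 in the table, and their CPM summed to 372 to 16558 in C1q-high libraries (median 2690) and to 0.0536 to 223 in C1q-low libraries (median 108). The sums did not overlap. Between 6 and 39 of the 39 genes, with a median of 21, were read in a C1q-high library, against 1 to 6, with a median of 4, in a C1q-low library. Spearman's rho between the 39-gene sum and the C1q sum was 0.95 over 46 libraries and 0.94 over the 27 C1q-high ones, given as a description, since both sums share each library's depth.

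**Figure D1:**
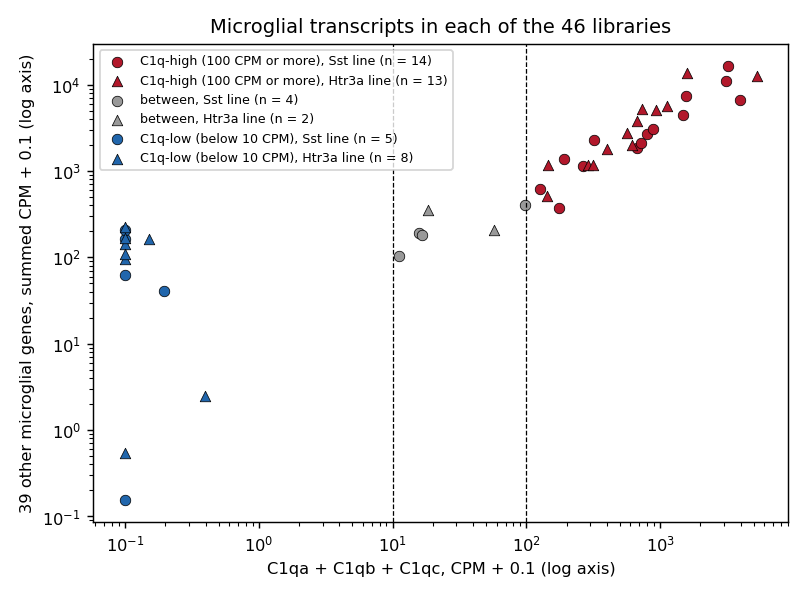
Each point is 1 library, with the C1q sum on the horizontal axis and the sum of the 39 other microglial genes on the vertical axis, both as CPM plus 0.1 on log axes; dashed lines mark 10 and 100 CPM. C1q-high libraries sit between 372 and 16558 CPM on the vertical axis and C1q-low libraries at or below 223 CPM.

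The plot of both sums shows the libraries of the Sst and Htr3a lines intermixed along the same slope.

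Gene differences were taken as the mean of log2(CPM + 1) over C1q-high libraries minus that over C1q-low libraries. A gene is called when this difference was 1 or more in size in all libraries and, in the same direction, within each line. Of 10001 genes with reads in at least 12 libraries, 1111 were called higher (11.1%) and 136 lower (1.36%) in C1q-high libraries. Without the demand on each line, 2445 genes (24.4%) were higher and 570 (5.7%) lower by 1 or more. The median gene differed by 0.38, so genes as a whole leaned higher there. Without the 2 Gad1-poor libraries the calls were 738 higher and 300 lower, and with the median of all genes subtracted they were 547 and 382. Of the 39 microglial genes 27 passed the read filter and 26 were called higher, with a median difference of 3.95. The exception was Tgfbr1, a TGF-beta receptor, at 0.54. The filter can be passed on reads in C1q-high libraries alone, so this count describes the list and is not evidence for it. Of the 12 that did not pass, 11 had no read in any C1q-low library. Within the Htr3a line the median of the 27 was 4.34 and within the Sst line 3.61, and without the 2 Gad1-poor libraries it was 3.95.

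**Figure D2:**
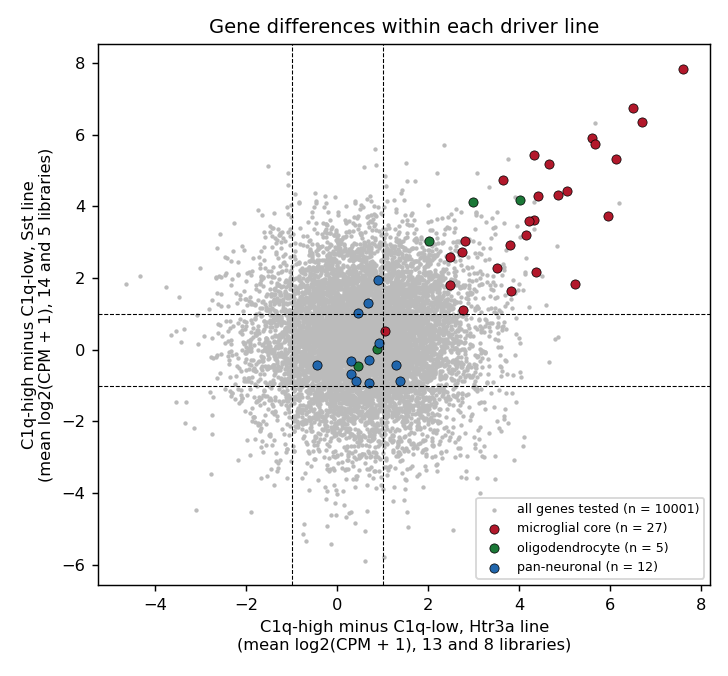
Each point is 1 gene, with its C1q-high minus C1q-low difference of mean log2(CPM + 1) in the Htr3a line on the horizontal axis and in the Sst line on the vertical axis; dashed lines mark differences of 1. The 26 microglial genes called lie beyond 1 on both axes, while the 12 pan-neuronal genes lie near the middle of the cloud of 10001 genes.

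In the plot of both lines the microglial genes lie beyond 1 on both axes except Tgfbr1.

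Among receptors, P2ry12, the ADP receptor of resting microglia, was read in 19 of 27 C1q-high libraries and in 0 of 13 C1q-low libraries. Its CPM ranged from 0 to 847 with a median of 67.7 in C1q-high libraries. Against a floor of 3 reads set for each C1q-low library, its mean CPM was 704-fold higher in C1q-high libraries. That floor covers counting of reads only, and P2ry12 also had no read in some C1q-high libraries, so the fold is not a bound. Cx3cr1, the fractalkine receptor, was also read in 19 C1q-high and 0 C1q-low libraries, at a lower level (median 1.99 CPM, range 0 to 635). For 13 libraries a count of 0 still allows a share of up to 23.1% with a read, which covers counting error only.

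Trem2, a lipid-sensing receptor, had a median of 57.4 CPM (0 to 379) in C1q-high libraries and at most 0.295 CPM in C1q-low libraries. Its signalling adaptor Tyrobp had a median of 144 CPM (0 to 2388) in C1q-high libraries and at most 0.884 CPM in C1q-low libraries. Fcer1g, the common Fc receptor gamma chain, had a median of 82.2 CPM (0 to 1274), against at most 14.3 CPM in C1q-low libraries. These 3 were absent from some C1q-high libraries, so their ranges overlapped with those of C1q-low libraries at 0. Csf1r, the receptor for the growth factor on which microglia depend, was read in 22 C1q-high and 7 C1q-low libraries, with medians of 23.2 and 0.0518 CPM.

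The largest difference outside C1q belonged to Ctss, encoding the lysosomal protease cathepsin S, whose promoter is printed above. Its mean log2(CPM + 1) was 7.73 ± 2.61 in C1q-high libraries (SD, n = 27) and 0.0057 ± 0.021 in C1q-low libraries (SD, n = 13). It was read in 25 C1q-high libraries, up to 1678 CPM, and in 1 C1q-low library, at 0.0531 CPM. Transcription factors were sparser. Spi1, which encodes PU.1, was read in 16 C1q-high and 1 C1q-low library (difference 2.89), Irf8 in 9 and 0, and Sall1, a regulator of microglial identity, in 2 and 0. These last 2 did not pass the read filter.

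The 20 called genes whose log2(CPM + 1) followed the C1q sum most closely were ranked by Spearman's rho over 46 libraries. Tyrobp and Ctss led at 0.90, followed by Fcer1g (0.86), Cst3 (0.85), Rgs10 (0.84), Aif1 (0.82), Sparc (0.82), Laptm5 (0.80) and Fcrls (0.78). The median over all 10001 genes was 0.04. Cx3cr1, Sepp1, Trem2, P2ry12, Ctsh, Rnase4, Ucp2, Fcgr3 and Gngt2 were also among the 20, down to 0.71, and 13 of the 20 are on the microglial list.

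**Figure D3:**
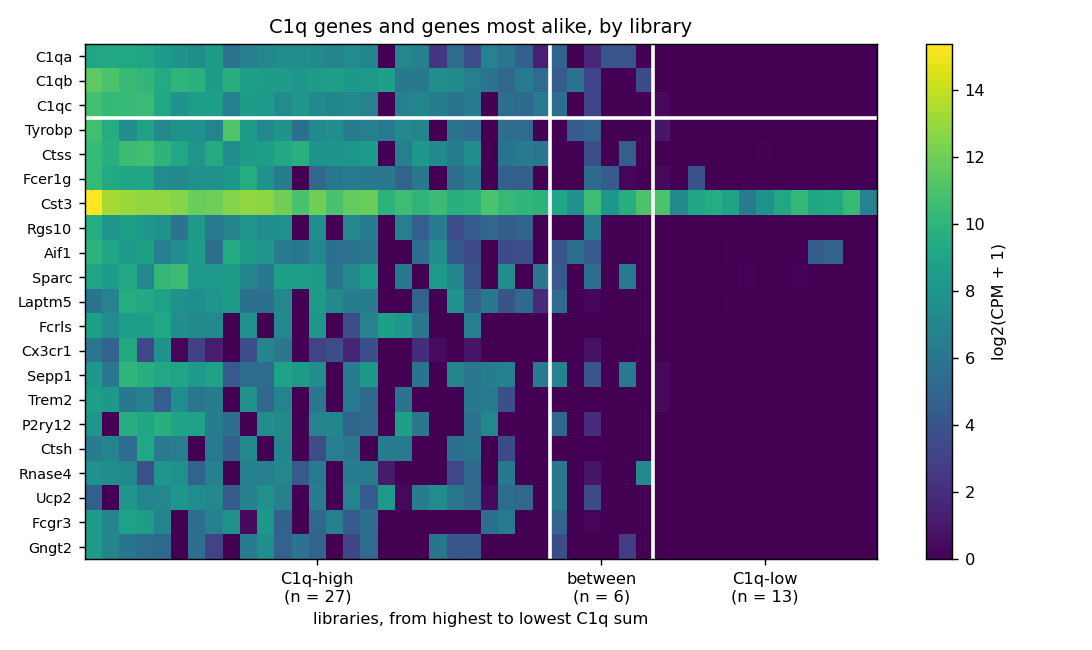
Rows are the C1q genes (above the white line) and 18 of the 20 genes most alike, columns are the 46 libraries from highest to lowest C1q sum, and colour is log2(CPM + 1). Most rows are dark throughout the 13 C1q-low libraries, whereas Cst3 is read in all 46.

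Of the 7 genes not on that list, Cst3, encoding the protease inhibitor cystatin C, was read in every library. It ranged from 820.5 to 42693 CPM in C1q-high libraries (median 3775) and from 75.8 to 2074 CPM in C1q-low libraries (median 545), so the groups overlapped. Sepp1, which encodes a selenium transport protein, was read in 22 C1q-high libraries (median 90.4 CPM) and in 1 C1q-low library. Ucp2, a mitochondrial carrier gene, was read in 23 C1q-high and 0 C1q-low libraries (median 86.1 CPM in C1q-high), and its mean was at least 373-fold higher in C1q-high libraries.

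Some of these genes overlap a neighbour, and without a stated strand setting the reads of such a pair cannot be told apart. Rnase4 shares 219 exon bases with Ang on the same strand (rho 0.92), and Gngt2 shares 234 with Abi3 on the opposite strand (rho 0.68). The same limit holds for genes named elsewhere. Csf1r shares 873 exon bases with Hmgxb3 on the opposite strand, and Trf shares 2108 with Gm20425 on the same strand.

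A stricter count gives presence alone. Of the 10001 genes, 54 (0.54%) were read in at least 14 of 27 C1q-high libraries and in at most 1 of 13 C1q-low libraries, and 12 of these are microglial list members. In the opposite direction, over all 22797 genes with no filter on reads, 0 genes had reads in at least 7 C1q-low and at most 2 C1q-high libraries. The sides differ in size, so these counts are not on equal terms. Among the 39 in no list were Ighm, Ccl9, Bcl2a1b, Crybb1 and Cd14, which were chosen after their values were seen. Ighm, the immunoglobulin mu heavy chain gene, was read in 14 C1q-high and 0 C1q-low libraries (at most 355 CPM). Cd14, a co-receptor for bacterial lipopolysaccharide, was read in 14 and 0 (at most 891 CPM).

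Of the genes that microglia switch on quickly, some were read mainly in C1q-high libraries and others on both sides. The sum of the 18 had medians of 717 CPM in C1q-high and 425 CPM in C1q-low libraries, with overlapping ranges. Btg2, a member, had medians of 109 CPM in C1q-high and 205 CPM in C1q-low libraries and was not called. Of 18 such genes 12 passed the filter and 7 were called higher (58.3%, against 11.1% of all genes), with a list median of 1.82. Ccl3 and Ccl12 passed without any C1q-low read, so this count describes the list and is not evidence for it. Ccl4, a chemokine, was read in 15 C1q-high libraries (median 12.4 CPM, at most 4852) and in 1 C1q-low library. Ccl3, a related chemokine, was read in 13 C1q-high libraries (at most 2288 CPM) and in 0 C1q-low libraries, and Il1a, encoding interleukin-1 alpha, in 15 and 3. Both chemokines were read together in 12 of the 27. Htr3a line replicate 11, with the highest C1q sum, also held the most of both, 7140 CPM. At least 1 of Ccl3, Ccl4, Il1a, Ccl12, Ccl2 and Tnf was read in 19 of 27 C1q-high and 4 of 13 C1q-low libraries, and 8 C1q-high libraries had none of them.

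Genes of the disease-associated microglial state were mixed. Of 19, 10 passed the filter and 5 of these (50%, against 11.1% of all genes) were called higher (Cd63, Ctsz, Apoe, Cd9 and Ctsd), with a median of 1.28. Spp1, Gpnmb and Clec7a, typical of that state, had no read in C1q-high or C1q-low libraries. Apoe, the apolipoprotein gene, was read in 21 C1q-high libraries (median 112 CPM, at most 819) and in 4 C1q-low libraries (at most 3896 CPM), so its direction depended on the mean used. Its difference was 2.91, while the log2 ratio of mean CPM was -1.03.

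Of the lysosomal genes, 20 of 20 passed and 6 were called higher (30%, against 11.1% of all genes), with a median of 1.31. Ctsh, 1 of those called, passed without any C1q-low read, so this count describes the list and is not evidence for it. Hexa, a lysosomal enzyme gene, had medians of 144 CPM in C1q-high and 38.7 CPM in C1q-low libraries, and Npc2, a cholesterol transfer protein gene, 37.1 and 0 CPM. Of 11 antigen presentation genes 4 passed and B2m, the MHC class I light chain, was the 1 called higher (2.32). That is 25% of the 4, against 11.1% of all genes. The list's median was 1.22 in the Htr3a line and -0.51 in the Sst line. The class II gene Cd74 was read in 6 C1q-high and 0 C1q-low libraries. Of 14 other complement genes measured 5 passed and 0 were called, against 11.1% of all genes called higher and 1.36% lower.

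Markers of border-associated macrophages, the macrophages of the meninges and perivascular spaces, were nearly absent. Of 10, 7 had no read in any library, Mrc1, Cd163 and Folr2 among them. Stab1 alone passed the filter, with a difference of 1.09, and was not called.

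**Figure D4:**
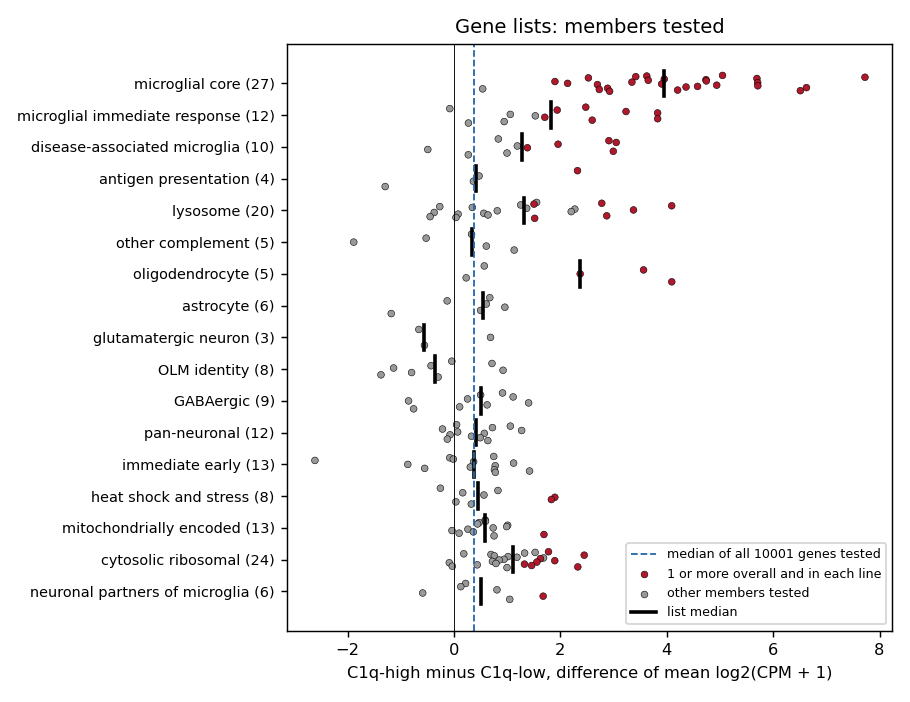
Each point is 1 list member that passed the read filter, placed by its C1q-high minus C1q-low difference of mean log2(CPM + 1); red points were called higher, black bars are list medians, and the dashed line is the median of all 10001 genes (0.38). The microglial list has the highest median (3.95), and the pan-neuronal (0.41) and GABAergic (0.50) medians lie near the dashed line.

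Oligodendrocyte transcripts also differed between the sides. Of 12 genes 5 passed and 3 were called higher (60%, against 11.1% of all genes), with a median of 2.37. That median depended on the filter and the scale, and was 0.46 with no filter on reads, 0.57 with reads in at least 23 libraries and 0.61 by the log2 ratio of mean CPM. Trf, encoding transferrin, was read in 18 C1q-high and 0 C1q-low libraries (median 50.6 CPM in C1q-high). It passed the filter without any C1q-low read, so the count of calls describes the list and is not evidence for it. Mbp, the myelin basic protein gene, had medians of 194 CPM in C1q-high and 0.80 CPM in C1q-low libraries. The highest Mbp value, 11864 CPM, was nevertheless in a C1q-low library, and the log2 ratio of mean CPM was -0.36. The 12-gene sum had a median of 524 CPM in C1q-high and 114 CPM in C1q-low libraries and overlapped throughout. Whether oligodendrocyte RNA has a part in the differences of genes it shares with microglia was not tested.

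Of 14 astrocyte genes 6 passed and 0 were called, against 11.1% of all genes called higher and 1.36% lower. The list's median was 0.55, and it was -0.13 in the Htr3a line and 0.74 in the Sst line. The astrocyte sum had medians of 978 CPM in C1q-high and 875 CPM in C1q-low libraries. Blood and vascular transcripts were sparse, with medians of 0 and 0.0681 CPM in C1q-high and 0 CPM for both in C1q-low libraries. Of the glutamatergic neuron genes 3 passed and 0 were called, too few to set against the share of all genes.

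Among the lists for the recorded cell itself (OLM identity, pan-neuronal and GABAergic), no member was called. Grin3a, an NMDA receptor subunit gene on none of these lists, was called lower, as described below. Of 8 OLM identity genes 8 passed and 0 were called, with a median of -0.37, which was 0.11 in the Htr3a line and -0.33 in the Sst line. The difference was negative in 6 of the 8, against 31.6% of the 10001 genes. Reln, encoding the extracellular protein reelin, had medians of 597 CPM in C1q-high and 1094 CPM in C1q-low libraries, a difference of -1.37. Of 12 pan-neuronal genes 0 were called (median 0.41). That median was 0.69 in the Htr3a line and -0.36 in the Sst line, and -0.12 in both lines together without the 2 Gad1-poor libraries. Of 9 GABAergic genes 0 were called (median 0.50). Over all genes 11.1% were called higher and 1.36% lower, so counts of 0 in lists this short say little about these genes. The pan-neuronal sum had medians of 11241 CPM in C1q-high and 13383 CPM in C1q-low libraries, with overlapping ranges.

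Within the 27 C1q-high libraries the pan-neuronal sum was lower where C1q was higher, with a rho of -0.76. Leaving C1q and the 54 genes of the stricter count out of the library total also gave -0.76. Those genes held 0.0521% to 1.99% of the reads, so this rescaling could hardly change the ranks and decides nothing. The 9 libraries with the most C1q had pan-neuronal sums of 5720 to 12663 CPM (median 9188), and the 9 with the least had 11241 to 17316 CPM (median 14453). The number of genes read did not follow C1q in these libraries (rho 0.03). For GABAergic genes the rho was -0.50. These points share the library and its total, and fewer reads from the neuron and more from another source cannot be told apart in CPM.

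**Figure D5:**
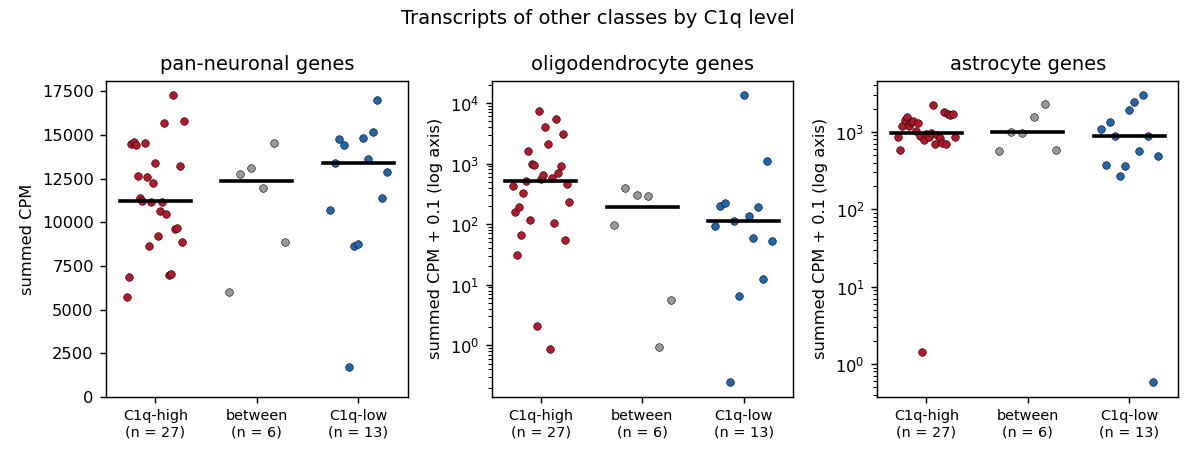
Summed CPM of pan-neuronal, oligodendrocyte and astrocyte genes per library, with C1q-high, between and C1q-low libraries from left to right and black bars as medians; the oligodendrocyte and astrocyte axes are logarithmic, with 0.1 added. The pan-neuronal medians are 11241 CPM in C1q-high and 13383 CPM in C1q-low libraries, and the points of all 3 panels overlap between the sides.

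In the plot of these sums 1 C1q-low library lies far below the rest in pan-neuronal genes and another far above in oligodendrocyte genes.

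The remaining lists are read beside the 11.1% of all genes called higher. Of 24 cytosolic ribosomal genes 8 were called higher (33.3%, median 1.10), with Rpl32 at 2.45 and Rps6 at 2.33. The sum of the 24 differed less, with medians of 3063 CPM in C1q-high and 2559 CPM in C1q-low libraries and overlapping ranges. Of 13 mitochondrially encoded genes 1 was called (7.69%), mt-Nd5, and of 13 immediate early genes 0, shares near or below that of all genes. Hspa1a and Hspa5, chaperone genes, were the 2 of 8 heat shock genes called higher (25%), and that list's median was 1.02 in the Htr3a line and -0.38 in the Sst line. On a list of genes for contact between neurons and microglia, 1 of 6 was called higher (16.7%), Sirpa, whose log2 ratio of mean CPM was -0.0053. The list does not tell which cell a read came from. Cx3cl1, which encodes the ligand of Cx3cr1, had medians of 383 CPM in C1q-high and 404 CPM in C1q-low libraries.

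Genes lower in C1q-high libraries were fewer and none is on the microglial list. Sertad4 had the lowest difference (-3.73), with reads in 4 of 27 C1q-high libraries (at most 38.1 CPM) and in 8 of 13 C1q-low libraries (at most 735 CPM). Psmg1, a proteasome assembly gene, followed at -3.24 and Ciao1, of cytosolic iron-sulfur assembly, at -3.00. Grin3a, an NMDA receptor subunit gene, had a median of 107 CPM (0 to 503) in C1q-high and 257 CPM (107 to 1132) in C1q-low libraries, with overlapping ranges. Flrt3, Gapvd1, Casd1, Actr3b, Naa60 and Ccdc132 made up the 10 lowest, down to -2.47 for Ccdc132.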

How the data were processed

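Each library is 1 patched OLM cell, and a library's replicate number only names it. The deposited tables hold raw counts of reads per gene, by symbol (22800 genes, the main input) and by Ensembl identifier. The submitters' processing notes name Trimmomatic, STAR, featureCounts and GRCm38; sources used here give neither the strand setting nor versions, and no molecular identifiers are named. The deposited normalized table is a linear signal, equal to each count over a library's own factor (0.144 to 2.09) for 100% of non-zero entries, to a tolerance of 0.1%.

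Counts were scaled to CPM and taken as log2(CPM + 1). No count model or p-value was used, because each sample is 1 cell, no label names an animal and the sides were set by measured values. For a gene with no read in the C1q-low libraries the difference depends on the added 1 and is no bound. Folds for such genes use a set floor of 3 reads per C1q-low library, which covers counting of reads only. SDs are between libraries. The C1q bounds, members, 21 gene lists and alternatives were chosen with earlier results of these data known. Named genes were the microglial list, the 20 called genes with the highest rho, the 10 lowest called genes, and up to 3 genes from each other list, leaving out sex-linked genes, predicted genes and pseudogenes. A few of them are not reported here. Of the symbols, 22557 matched GENCODE M21 (GRCm38), which gave coordinates and exon lengths. The calculation was tested on simulated counts. The table's own line entry matched the label in 46 of 46 libraries, and 0 of 1035 pairs were identical. Alternatives were the normalized table, thinning, a pseudocount of 10, scaling by edgeR 4.0.16 or DESeq2 1.42.0, other C1q bounds and read filters, ratios of means, and leaving out each library. Python 3.11.15 with pandas 2.3.3 and scipy 1.17.1 was used.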

Additional observations from a re-analysis of the deposited data

Results flagged for a closer look

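Sums of several gene lists were checked in the C1q-low libraries of each line and in the libraries between the bounds. Of 18 such checks, 3 held a library far from the others. A rate of about 1 in 20 holds for separate checks of normally distributed values. These checks share libraries and use CPM sums not shown to be so distributed, so that rate is only a rough guide. Among the 8 C1q-low Htr3a line libraries, replicate 4 had an oligodendrocyte sum of 13314 CPM, and replicate 20, the shallowest library, had a pan-neuronal sum of 1684 CPM. Among the 5 C1q-low Sst line libraries, replicate 21 had an oligodendrocyte sum of 1085 CPM.

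The libraries between the bounds entered no difference. In 2 of these 6, the sum of the 39 microglial genes lay above the highest C1q-low library (223 CPM), at 352 CPM in Htr3a line replicate 10 and 401 CPM in Sst line replicate 11. Htr3a line replicate 10 was unusual in other ways. It had the most genes read of all libraries (12693), a blood gene sum of 12083 CPM and a GABAergic sum of 374 CPM.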

How the results depend on the processing

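Genes called higher in C1q-high libraries numbered 1111, and 236 with a pseudocount of 10, 1951 in the normalized table, 738 without the 2 Gad1-poor libraries and 547 after subtracting the median gene. Genes called lower numbered 136, and 31, 305, 300 and 382 under those settings, 218 after thinning, 256 by ratios of mean CPM and 334 without libraries with fewer than 5000 genes read. Of all calls 89.1% were higher, against 71.1%, 70.0% and 58.9% without the Gad1-poor libraries, without the libraries of few genes and after subtracting the median gene, 76.2% by ratios and 80.3% after thinning. These last removals and the subtraction were chosen after seeing the data. The median gene differed by 0.12 to 0.62 across settings other than the ratio (0.09).

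The microglial median was 3.95, and 2.15 with a pseudocount of 10, 6.26 in the normalized table and 6.32 by ratios; 9 members were called with reads required in 23 libraries, a filter that fewer members pass. The oligodendrocyte median, 2.37, was 0.46 with no filter on reads. The pan-neuronal median, 0.41, was -0.075 after thinning, -0.024 by ratios, -0.12 without the Gad1-poor libraries and -0.25 without the libraries of few genes. By ratios Apoe was -1.03, Mbp -0.36 and Sirpa -0.0053. The cause of these changes was not tested.

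Leaving out each of 40 libraries gave 891 to 1370 genes higher and 108 to 220 lower (220 without Htr3a line replicate 20, 210 without Sst line replicate 17), a microglial median of 3.77 to 4.10 with 25 to 26 members called, and medians of 2.08 to 3.18 for oligodendrocyte, 0.18 to 0.67 for astrocyte, -0.51 to -0.19 for OLM identity and -0.076 to 0.50 for pan-neuronal genes, negative without Htr3a line replicate 20. Of 5938 values for 108 named genes, 5876 kept their sign and moved by less than the spread between libraries. A further 59 moved by more or changed sign, and 3 values of called genes reversed sign. Leaving out 1 library, as in 40 of the runs, can hardly move a mean by that spread, so these counts do not show stability. No paired analysis was possible because the sides are set by C1q within both lines and nothing says that a number shared by cells of both lines marks a shared animal or day.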
